A study of Homo sapiens with 66 samples.

Results

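Binding of HIF-1α and of its dimer partner HIF-1β was compared in kidney tubule cells that lack HIF-2α, using the 4 chromatin immunoprecipitation (ChIP-seq) peak lists made from these cells, of 50 peak lists and 66 samples in the series. The members were chosen by their labels alone: the HKC8 HIF2aKO line, 0.5% oxygen for 16 h, ChIP with the HIF-1α antibody PM14 (replicates 1 and 2) or the HIF-1β antibody NB100-110 (replicates 1 and 2). HKC8 is a human proximal tubule cell line, and its HIF-2α gene was disrupted in all 4 members with pairs of Cas9 nickase guides. The study describes its knockout lines as single clones, so clone and genotype cannot be told apart, and HIF-2α ChIP in this line was not analysed here, so its genotype was not checked with that antibody. The other groups used are unmodified HKC8 cells of the same experiment (WT, with all 3 antibodies) and HKC8 HIF1aKO cells (HIF-2α and HIF-1β), both at 0.5% oxygen for 16 h. Further lists came from HKC8 cells at 0.5% oxygen for 6, 16 and 48 h and at 3% oxygen for 6 h. Others came from normoxic RCC4 renal carcinoma cells and from HepG2 hepatoma cells at 0.5% oxygen for 16 h. Each group had 2 libraries, and the study calls them independent ChIP-seq experiments without naming separate cultures, so any p-value measures only the spread between libraries.

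HIF-1α and HIF-2α are stabilised when oxygen falls, and each pairs with the constitutive subunit HIF-1β (ARNT) to bind the hypoxia response element (HRE), whose core reads ACGTG or GCGTG. HIF-1β also has partners outside the oxygen pathway, among them the aryl hydrocarbon receptor (AHR), which binds a core containing GCGTG. In cells without HIF-2α, HIF-1α is the main oxygen-regulated partner left to HIF-1β. The question put to these lists was how far the sites of the 2 subunits coincide, and what marks the sites called for 1 subunit without the other.

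Peaks of the 4 lists were joined into 3372 merged sites. A site found in all 4 lists is called shared (631 sites). A HIF-1β-without-HIF-1α site lay in both HIF-1β lists and in neither HIF-1α list (513 sites), and a HIF-1α-without-HIF-1β site lay in both HIF-1α lists and in neither HIF-1β list (7 sites). Each site is named by the nearest protein-coding transcription start site (TSS), which does not show that the gene is regulated from it. To show the DNA at the leading sites of each class, 25 bases around an HRE core within 100 bp of the site's centre are printed in the 5′ to 3′ direction of the core, with the core in capitals, in GRCh37 coordinates. Where a window held several cores, the ACGTG form and then the core nearest the centre was taken. First come 6 of the 7 shared sites that hold a core among the 8 with the best mean rank.
KDM3A (chr2:86667953-86667977, minus strand): agggaagagaACGTGcggtttcagg
MRPL45 (chr17:36442708-36442732, minus strand): tccagggcttGCGTGtcagcagaca
PKM (chr15:72519207-72519231, plus strand): gttccctcctACGTGcagacaagca
GPI (chr19:34850234-34850258, plus strand): tccatcccagACGTGcggacccggg
PFKFB4 (chr3:48594706-48594730, plus strand): gacgaggcctACGTGacccgcacgg
DDIT4 (chr10:74020766-74020790, minus strand): gacttggagaACGTGcgactgagga

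Of the 10 HIF-1β-without-HIF-1α sites with the best ranks, 6 had no HRE core in that window (nearest SNX9, ETS1, RUNX3, NUDT12, CACHD1 and SAMD12). The other 4 are shown because both forms of the core occur among them, and PLAU because it is at a promoter.
ZBTB17 (chr1:16276936-16276960, minus strand): ctgtgtgctcACGTGaccttttcca
MAT2A (chr2:85731453-85731477, minus strand): atgaggagtgACGTGaggagagaac
HES6 (chr2:239169861-239169885, minus strand): atccacagagGCGTGgctggctgca
RUNX2 (chr6:45665486-45665510, plus strand): tcatcagcttGCGTGcatgaagaac
PLAU (chr10:75669083-75669107, minus strand): ttgtaaataaACGTGaccagaacat

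Among the 7 HIF-1α-without-HIF-1β sites, 4 held a core.
GNAI3 (chr1:110089099-110089123, plus strand): aggcgagtgtACGTGgtgggaggag
ARID1B (chr6:157342655-157342679, minus strand): ccacgagcctACGTGcggggtaggg
BMI1 (chr10:22610089-22610113, minus strand): ccgtgtgtgtGCGTGcgagcggggg
MRPL58 (chr17:73008848-73008872, minus strand): gcagcgcccgGCGTGggcaccgtgc

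In the full lists, nearly every reproducible HIF-1α site carried HIF-1β, while the reverse held for about 2 of 3 HIF-1β sites. HIF-1α replicates 1 and 2 had 1271 and 915 peaks, and HIF-1β replicates 1 and 2 had 2550 and 2085. Of the 656 sites called in both HIF-1α lists, 649 overlapped a HIF-1β peak of either replicate by at least 1 bp (98.9%, 95% exact binomial interval 97.8 to 99.6), against 0.762% after the sites were moved by 10 kb. Of the 1490 sites called in both HIF-1β lists, 977 overlapped a HIF-1α peak of either replicate (65.6%, 63.1 to 68.0), against 0.268% after the move. These intervals, like all those below, cover counting error only. When the other subunit had to be present in both replicates, the shares were 96.2% and 42.4%. The HIF-1β lists were longer, and with lists cut to equal length by score the shares were 93.6% and 84.7%. Much of the gap between the subunits thus went with list length, though equal lists keep fewer weak HIF-1β peaks by construction. Leaving out HIF-1α replicate 1 brought the share for HIF-1β sites to 47.4%, and leaving out HIF-1α replicate 2 brought it to 60.6%.

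Single lists overlapped in the same unequal way. HIF-1α replicate 1 had 88.6% of its peaks in HIF-1β replicate 1 and 72.6% in HIF-1β replicate 2. HIF-1α replicate 2 had 81.5% and 83.0% of its peaks in these lists. In the other direction, HIF-1β replicate 1 had 44.1% of its peaks in HIF-1α replicate 1 and 29.1% in HIF-1α replicate 2, and the values for HIF-1β replicate 2 were 44.3% and 36.3%. Between replicates of 1 antibody, 51.7% of HIF-1α replicate 1 peaks lay in replicate 2 and 72.3% the other way, and for HIF-1β these shares were 58.5% and 71.7%. Such shares move with list length. As a part of the merged sites of each pair, overlap was 0.431 between the HIF-1α replicates and 0.475 between the HIF-1β replicates, against 0.272 to 0.417 between a HIF-1α and a HIF-1β list. A peak missing from 1 list is therefore common even between replicates of the same antibody.

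**Figure D1:**
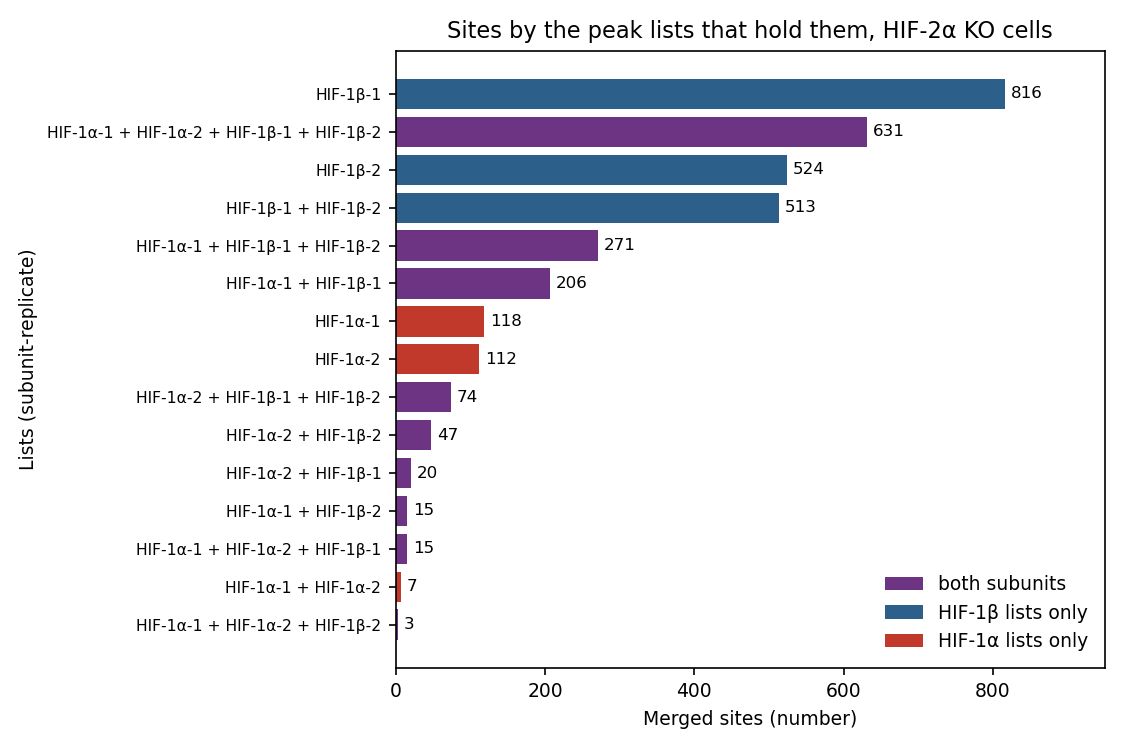
Number of merged sites (x axis) in each combination of the 4 peak lists (y axis, subunit and replicate number) in HIF-2α knockout cells. Purple bars hold both subunits, blue bars HIF-1β lists only and red bars HIF-1α lists only: 631 sites are in all 4 lists, 513 in both HIF-1β lists alone and 7 in both HIF-1α lists alone.

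The most common combination was a single HIF-1β list, with 816 sites for replicate 1 and 524 for replicate 2. A single HIF-1α list accounted for 118 sites in replicate 1 and 112 in replicate 2. A further 345 sites lay in both HIF-1β lists and 1 HIF-1α list, and 18 in both HIF-1α lists and 1 HIF-1β list.

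The overlap followed the score. The score is the deposited peak score, with a lowest value of 50. From its values it was read as 10 times the negative log10 of the p-value of the peak caller (MACS). Each list was cut into 10 bins by score. In the 4 highest bins of the HIF-1α lists, from 98.9% to 100.0% of peaks overlapped HIF-1β, and in the lowest bin 64.3% (replicate 1) and 56.0% (replicate 2) did. For HIF-1β the share with HIF-1α fell from 97.3% in the highest bin to 12.6% in the lowest bin in replicate 1, and from 93.8% to 18.3% in replicate 2. HIF-1β peaks with HIF-1α had median scores of 179.8 and 137 in replicates 1 and 2, and those without had 71.1 and 69.8. HIF-1α peaks with HIF-1β had median scores of 109 and 102, and those without had 57.7 and 56.9. The best ranked peak without the other subunit was number 523 in HIF-1α replicate 1, 271 in HIF-1α replicate 2, 103 in HIF-1β replicate 1 and 67 in HIF-1β replicate 2.

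**Figure D2:**
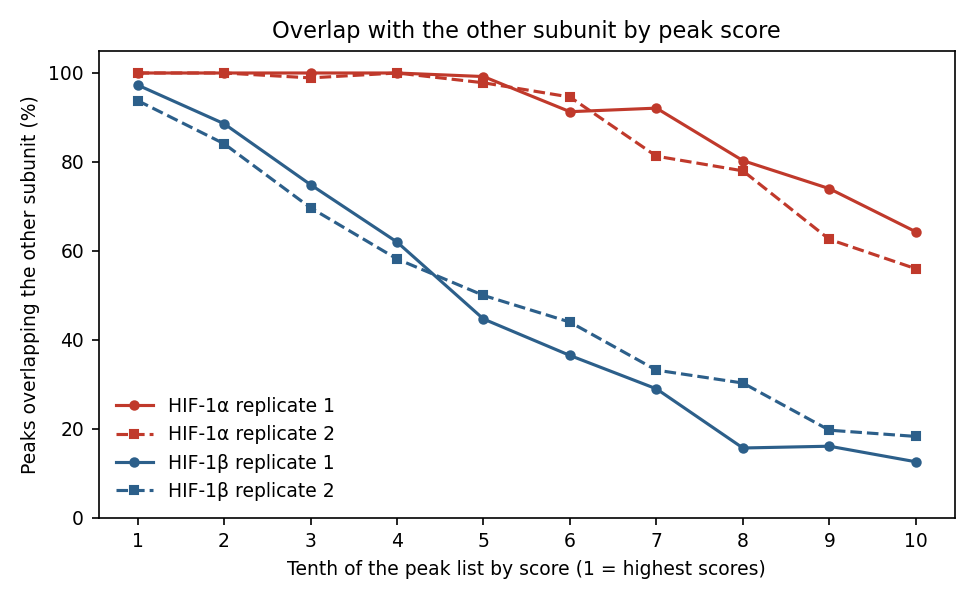
Percentage of peaks that overlap the other subunit in either replicate (y axis) in each of 10 bins of a list ordered by score (x axis, 1 holds the highest scores). The HIF-1α lists (red) lie between 97.8% and 100.0% in the 5 highest bins, while the HIF-1β lists (blue) fall to 12.6% and 18.3% in the lowest.

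At the 631 shared sites the peaks of the 2 subunits had centres close together, where a centre is the midpoint of a peak. The median distance between HIF-1α and HIF-1β centres was 51.5 bp. It was 64.0 bp between HIF-1α replicates and 62.0 bp between HIF-1β replicates. Across these sites, Spearman's rho of the scores was 0.799 between HIF-1α and HIF-1β of replicate 1 and 0.743 between those of replicate 2. Across replicate numbers it was 0.682 (HIF-1α replicate 1 with HIF-1β replicate 2) and 0.640 (HIF-1α replicate 2 with HIF-1β replicate 1). It was 0.675 between the HIF-1α replicates and 0.817 between the HIF-1β replicates. These are correlations across 631 genomic sites, which share the same libraries and are not independent replicates.

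The shared sites with the best mean rank over the 4 lists were nearest to well-known HIF-1 target genes and to several others. The site 0.0620 kb from the TSS of KDM3A, a histone demethylase of the 2-oxoglutarate oxygenase family, ranked 1 and 5 with HIF-1α and 3 and 2 with HIF-1β. Its scores were 2636 and 1565 with HIF-1α and 3100 and 2695 with HIF-1β, and it was called in 42 of the 46 other lists of the series. The intronic site of PKM (pyruvate kinase) had HIF-1α scores of 1723 and 1412 and HIF-1β scores of 2631 and 2110. The site at GPI, the second enzyme of glycolysis, had HIF-1α scores of 1275 and 1493 and HIF-1β scores of 3107 and 1629, with 5 ACGTG and 4 GCGTG cores in its window. The other leaders were nearest to C4orf3, NDRG1, MRPL45 (a mitochondrial ribosomal protein), PFKFB4 (an enzyme of fructose 2,6-bisphosphate turnover) and DDIT4 (an inhibitor of mTORC1). Of these, the sites of NDRG1, MRPL45 and DDIT4 were intergenic and lay 73.7, 10.2 and 12.9 kb from the TSS. The C4orf3 site had no HRE core within 100 bp of its centre although it ranked 7 and 3 with HIF-1α and 1 and 9 with HIF-1β. With each of the 3 antibodies, all 8 leaders were called in both WT replicates. In either WT replicate, HIF-1α, HIF-2α and HIF-1β were called at 94.0%, 73.5% and 99.7% of all shared sites.

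The listed genes of glycolysis and of 2-oxoglutarate oxygenases and collagen modification held shared sites more often than genes at large. The members of the lists were picked with earlier results of these data known. Their shares therefore describe the listed genes and are no test of whole families or pathways. Each gene was placed by its best ranked site within 10 kb of a TSS. Of all 19794 protein-coding genes, 8.67% had any site, 2.32% had a shared site as the best, 0.889% a HIF-1β-without-HIF-1α site and 0.0455% a HIF-1α-without-HIF-1β site. Among 22 genes of glycolysis and glucose uptake, 13 had a shared site (59.1%): HK2, GPI, PFKFB3, PFKFB4, ALDOA, GAPDH, PGK1, PGAM1, ENO1, ENO2, PKM, LDHA and PDK1. The aldolase site of ALDOA scored 465 and 1278 with HIF-1α and 741 and 809 with HIF-1β, and the enolase site of ENO1 scored 731 and 2372 and then 2282 and 1837. At the weakest of these by mean rank, that of ENO2, scores were 75.5 and 86.8 with HIF-1α and 195 and 104 with HIF-1β. The glucose transporter SLC2A1 and the lactate transporter SLC16A3 had sites in both HIF-1β lists and 1 HIF-1α list. At SLC2A1 the HIF-1α score was 61.5 in replicate 1, and the HIF-1β scores were 141 and 248. Isoenzymes of the same steps (HK1, PFKL, PFKM, PFKP, ALDOC), TPI1 and SLC2A3 had no site within 10 kb.

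Of 12 genes for 2-oxoglutarate oxygenases and collagen modification, 10 had a shared site (83.3%), among them the demethylases KDM3A, KDM4B, KDM4C, KDM5B and KDM5C, the collagen hydroxylases P4HA1, P4HA2, PLOD1 and PLOD2, and the collagen cross-linking oxidase LOX. Of 8 genes of pH control and secreted vascular factors, 4 had a shared site (CA9, ADM, ANGPTL4 and STC2), and the best VEGFA site was in only 1 list of each subunit, with scores of 95.3 and 195. At CA9, the carbonic anhydrase often used as a marker of hypoxia, scores were 905 and 957 with HIF-1α and 1711 and 1358 with HIF-1β. Of 8 genes of mitochondria, autophagy and stress, 3 did (BNIP3L, DDIT4 and FAM162A). None of these 3 lists had a gene whose best site was HIF-1β-without-HIF-1α, nor did the glycolysis list or a list of 10 genes often linked to HIF-2. Among all protein-coding genes this share was 0.889%, so finding none in lists this short is near it.

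Of 14 genes for other partners of HIF-1β and for AHR targets, 1 had a site, which is near the 8.67% of all protein-coding genes. None of 6 genes encoding other partners (AHR, SIM1, SIM2, NPAS1, NPAS3 and NPAS4) had a site within 10 kb. Of 8 AHR targets, only UGT1A6 did, with a shared site, and the classic targets CYP1A1, CYP1B1, AHRR and TIPARP had no site in any of the 4 lists. Of 11 genes of oxygen sensing and HIF subunits, HIF1AN, the asparaginyl hydroxylase FIH, had a shared site, which lay nearer to the TSS of NDUFB8. HIF3A, which encodes a further HIF-α subunit, had a HIF-1β-without-HIF-1α site 0.703 kb from its TSS in an intron, with scores of 65.8 and 78.5, the only one in the 10 gene lists. In the AP-1 family and the circadian clock list, FOSL2 (1 of 9) and BHLHE40 (1 of 12) had a shared site.

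Taken as whole lists, HIF-1α peaks lay at promoters more often than HIF-1β peaks, but 2 libraries against 2 could not pass a test. The share of peaks within 1 kb of a TSS was 31.5% and 43.1% in HIF-1α replicates 1 and 2 and 25% and 25.5% in HIF-1β replicates 1 and 2, so the groups did not overlap. The means were 37.3% ± 8.22 and 25.2% ± 0.357 (SD, n = 2 each), and the two-sided exact permutation p was 0.333, the smallest that this design allows. An HRE core lay within 100 bp of the centre in 74.2% and 69.3% of HIF-1α peaks and in 67.5% and 61.9% of HIF-1β peaks, against 23.7% to 24.3% in flanking windows of the same length. The AP-1 motif (TGACTCA or TGAGTCA, which read as each other on the opposite strand) lay in 13.7% and 11% of HIF-1α peaks and in 14.4% and 17.2% of HIF-1β peaks, against 3.19% to 3.89% in the flanks. Both of these differences also had an exact permutation p of 0.333. With replicate 2 left out, the promoter difference was 6.52 percentage points in place of 12.1, and the AP-1 difference was -0.715 in place of -3.50.

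Sites with HIF-1α and without HIF-1β were few and weak. The 7 sites in both HIF-1α lists lay nearest to GNAI3 (an inhibitory G protein subunit), SEC22B (a vesicle fusion protein), BMI1 (a Polycomb protein), MRPL58 (a mitochondrial release factor), CRLS1 (cardiolipin synthase), ARID1B (a subunit of the SWI/SNF remodeller) and BCOR (a corepressor). Their scores ran from 52.1 to 96.3, and their ranks from 425 of 912 to 1091 of 1268 on the main chromosomes. The GNAI3 site, for example, scored 96.0 in HIF-1α replicate 1 and 52.2 in replicate 2, and the CRLS1 site 57.0 and 52.1. Of the 7 sites, 4 (57.1%) lay within 1 kb of a TSS, against 24.8% of all merged sites, and their median GC content was 65.2%. All 7 had a HIF-1β peak in at least 1 of the WT replicates, against 85.2% of all merged sites, and 2 (GNAI3 and SEC22B) had a WT HIF-1α peak, against 48.0%. Leaving out 1 list changed their number to 119 (without HIF-1α replicate 1), 125 (without HIF-1α replicate 2), 22 (without HIF-1β replicate 1) and 10 (without HIF-1β replicate 2).

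The 230 sites in 1 HIF-1α list and in no HIF-1β list were set apart from the other classes by what they lacked. Their median best score was 56.9 and their median width 749.5 bp, against 1276 bp for shared sites. HIF-1α was called at them in either WT library at 16.5% (12 to 22) and HIF-1β at 34.3% (28.2 to 40.9), where 48.0% and 85.2% of all merged sites had such a peak. AP-1 lay in 4.78% (2.41 to 8.40), close to the 3.26% of their flanks. An HRE core was nevertheless present in 51.7% (45.1 to 58.4), against 18.3% of the flanks, and 29.1% (23.3 to 35.5) lay within 1 kb of a TSS. In 100 of the 230 (43.5%) no HIF-α peak was found in any of the 30 other HIF-α lists. This share was 9.96% over all merged sites and 15.7% over the sites in 1 HIF-1β list and no HIF-1α list.

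HIF-1β-without-HIF-1α sites lay farther from a TSS and held fewer HRE cores of the ACGTG form than shared sites. Of the 513 sites, 64 lay within 1 kb of a TSS (12.5%, 9.74 to 15.7), against 245 of 631 shared sites (38.8%, 35.0 to 42.8). Their median distance to a TSS was 22.6 kb, against 4.46 kb. Introns held 46.0% of them and intergenic DNA 47.2%, against 40.1% and 42.9% of shared sites. ACGTG lay within 100 bp of the centre in 32.0% (27.9 to 36.2), against 62.8% (58.9 to 66.5) of shared sites. GCGTG was as frequent in both classes, at 37.4% (33.2 to 41.8) and 35.0% (31.3 to 38.9), so the drop fell on 1 form of the core. The 345 sites with HIF-1β in both lists and HIF-1α in 1 were near shared sites in their cores, with ACGTG in 58.6% (53.2 to 63.8) and GCGTG in 36.8% (31.7 to 42.1), and lay between the classes in promoter share, 26.1% (21.5 to 31.1). The flanks of HIF-1β-without-HIF-1α and shared sites held ACGTG in 9.45% and 9.19% and GCGTG in 14.9% and 17%.

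**Figure D3:**
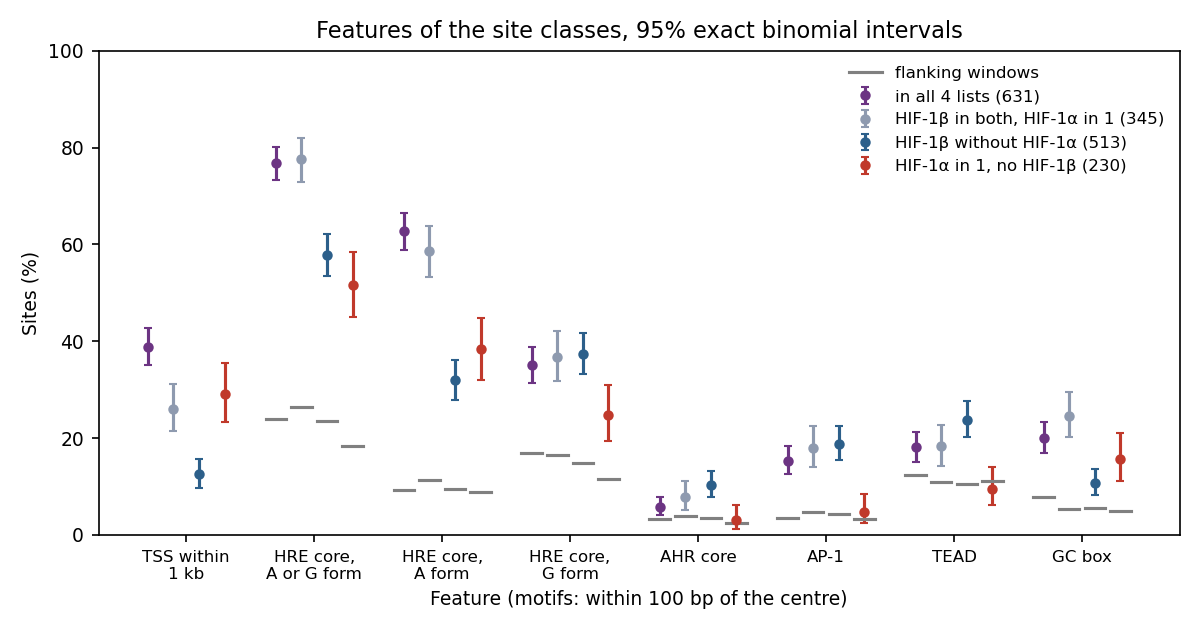
Percentage of sites (y axis) with a TSS within 1 kb or with each motif within 100 bp of the centre (x axis) in 4 site classes, with 95% exact binomial intervals, and grey lines for flanking windows. The ACGTG form of the core is at 62.8% in shared sites and 32.0% in HIF-1β-without-HIF-1α sites, while the GCGTG form is at 35.0% and 37.4%.

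The cores lay at the centres of the sites. In the 50 bp on either side of the centre, 100 shared sites held 27.4 and 29 ACGTG cores, against 4.44 in 50 bp that started 600 bp away, and 16.2 and 12.7 GCGTG cores. HIF-1β-without-HIF-1α sites held 14.2 and 11.1 ACGTG cores and 14.2 and 13.1 GCGTG cores there, so the counts of both forms were similar. In the 50 bp that started 600 bp away, these sites held 2.92 ACGTG and 6.43 GCGTG cores. The next 50 bp inward held 5.46 ACGTG and 3.90 GCGTG cores. On the other side of the centre, the counts were 3.51 and 5.85 from 500 to 550 bp. They were 3.31 and 6.24 from 550 to 600 bp. The rise over the distant counts was larger for ACGTG with all of these bins except the one that held 5.46, so it depended on the bin taken.

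The letters next to the core differed too. ACGTG with a T before it (TACGTG) lay in 25.8% (22.5 to 29.4) of shared sites and 9.36% (6.98 to 12.2) of HIF-1β-without-HIF-1α sites, against 1.90% and 1.56% of the flanks. A longer form of GCGTG that the AHR dimer is known to bind (TNGCGTG) had the opposite order, at 5.71% (4.03 to 7.81) and 10.3% (7.84 to 13.3), against 3.25% and 3.41% of the flanks. These motifs overlap the cores that they contain. The E-box CACGTG, which contains ACGTG on both strands, lay in 10.6% (8.32 to 13.3) and 7.41% (5.29 to 10.0). AP-1 lay in 15.2% (12.5 to 18.3) and 18.7% (15.4 to 22.4), the TEAD motif CATTCC in 18.1% (15.1 to 21.3) and 23.8% (20.2 to 27.7), and the GC box GGGCGG in 20% (16.9 to 23.3) and 10.7% (8.18 to 13.7). Neither an HRE core nor AP-1 lay in 20.8% of shared and 34.9% of HIF-1β-without-HIF-1α sites. All motifs were searched on both strands, and a match describes letters in a window and does not show binding to them.

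Splitting both classes by distance to the TSS left the difference in the core. Among sites farther than 1 kb, ACGTG lay in 65.3% (60.3 to 70.0) of 386 shared sites and 30.5% (26.3 to 35.0) of 449 HIF-1β-without-HIF-1α sites, and GCGTG in 27.5% (23.1 to 32.2) and 35.9% (31.4 to 40.5). Within 1 kb, ACGTG lay in 58.8% (52.3 to 65.0) of 245 and 42.2% (29.9 to 55.2) of 64 sites, whose intervals overlap, and GCGTG in 46.9% and 48.4%. AP-1 followed distance: in shared sites it lay in 5.71% within 1 kb and 21.2% farther away.

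Weak scores went with missing HIF-1α, so the 1489 sites with both HIF-1β lists in the 4-list merge were also cut into 4 equal bins by mean HIF-1β rank. In the highest bin, 86.1% of the sites had HIF-1α in both lists and 7.24% (27 sites) had none. In the lowest, 8.33% had HIF-1α in both and 64.8% (241 sites) had none. Within bins the classes kept this order of promoter and ACGTG shares. In the lowest bin, 58.1% of sites with HIF-1α in both lists lay within 1 kb of a TSS, against 16.2% of those without, and ACGTG lay in 74.2% against 36.1%. In the highest bin, promoter shares were 35.8% and 7.41% and ACGTG shares 60.7% and 18.5%. The 27 strongest HIF-1β sites without HIF-1α had the lowest share of any HRE core, 40.7%, against 74.5% for those with HIF-1α in both lists of that bin. The same comparison within each list, where HIF-1α in either replicate counted, gave 34.8% and 35.6% of HIF-1β peaks with HIF-1α at promoters against 16.0% and 15.2% of those without (difference 19.6 percentage points ± 1.16, SD, n = 2 libraries). For any HRE core this difference was 15.1 ± 6.94, and it was 8.25 in the upper 50% of the lists by score.

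The 10 strongest HIF-1β-without-HIF-1α sites lay between 5.94 and 275 kb from a TSS. The site with the best mean rank, in an intron 49.1 kb from the TSS of SNX9 (a sorting nexin), scored 811 and 557 with HIF-1β. A site 169 kb from ETS1 scored 597 and 603, a site 57.6 kb from RUNX3 scored 491 and 586, and a site 275 kb from RUNX2 scored 374 and 352, in each case nearest to a gene for a transcription factor. ZBTB17, a zinc-finger factor that works with MYC, had an intronic site 5.94 kb from its TSS with scores of 487 and 309. Its window held 2 ACGTG matches, but its printed sequence reads CACGTG, which matches ACGTG on both strands. The site 20.7 kb from HES6, a bHLH gene, scored 368 and 459, and the site 34.8 kb from MAT2A, which makes S-adenosylmethionine, scored 345 and 379.9. All 10 of these leaders had HIF-1β peaks in both WT and both HIF1aKO replicates, and HIF-2α peaks in both WT replicates except at ETS1 (1 replicate) and NUDT12 (none). WT HIF-1α was called in both replicates at RUNX3, SAMD12 and MAT2A, in 1 at SNX9, CACHD1, ZBTB17 and RUNX2, and in none at ETS1, NUDT12 and HES6. Over all merged sites, a peak in either replicate was found at 85.2% for WT HIF-1β and 61.0% for HIF1aKO HIF-1β. For WT HIF-2α and WT HIF-1α these shares were 62.9% and 48.0%. The 10 sites were picked for strong HIF-1β peaks, so their calls do not describe the class.

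Within 1 kb of a TSS the best sites were at LY6K, FAM174B, PLAU (urokinase), KCNK3 (a potassium channel) and SYNC (an intermediate filament protein). The PLAU site, 0.180 kb from the TSS, scored 235 and 204 with HIF-1β and held 1 ACGTG core and 1 AP-1 motif. WT HIF-2α and HIF1aKO HIF-1β were called at all 5 in both replicates, while WT HIF-1α was called in no replicate at PLAU, KCNK3 and SYNC and in 1 at LY6K and FAM174B. These 5 do not stand for the 64 sites of this class within 1 kb. Of those 64, WT HIF-2α was called in either replicate at 46.9%, HIF1aKO HIF-1β at 56.2% and WT HIF-1α at 34.4%.

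The sites of HIF-1β without HIF-1α were, in cells that have HIF-2α, mostly HIF-2α sites. In WT cells, HIF-2α was called in either replicate at 426 of the 513 (83.0%, 79.5 to 86.2), against 62.9% of all merged sites, and HIF-1α at 218 (42.5%, 38.2 to 46.9), against 48.0%. HIF-1β in HIF1aKO cells was called at 435 (84.8%, 81.4 to 87.8), against 61.0% of all merged sites. WT HIF-1α replicates 1 and 2 had peaks at 33.7% and 30.0% of these sites and at 91.1% and 85.4% of shared sites. WT HIF-2α replicates had peaks at 72.7% and 82.5% of them and at 68.3% and 68.5% of shared sites. HIF1aKO HIF-1β replicates had peaks at 74.3% and 82.7% of them and at 57.2% and 70.7% of shared sites. In each of these 3 comparisons the 2 libraries of 1 class lay outside the range of the other class. For WT HIF-1α, here and below, this separation is partly built in. The classes were set by HIF-1α calls with the same antibody in the same cell line. WT HIF-1β was called at 93.0% and 96.9% of HIF-1β-without-HIF-1α sites. The lists differed in length, with 1910 and 1529 peaks for WT HIF-1α and 4523 and 6736 for WT HIF-2α, and its part in these shares was not tested.

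**Figure D4:**
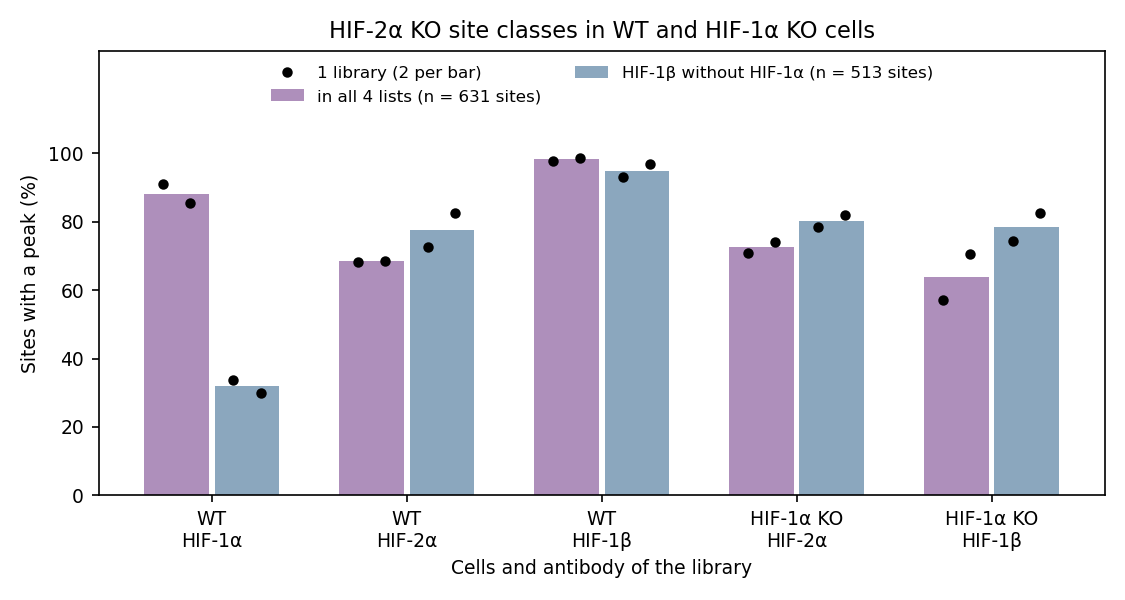
Percentage of sites with a peak (y axis) in WT and HIF-1α knockout libraries (x axis) for 631 shared sites (purple) and 513 HIF-1β-without-HIF-1α sites (blue). Bars are means and points the 2 libraries: WT HIF-1α is at 91.1% and 85.4% of shared sites but at 33.7% and 30.0% of HIF-1β-without-HIF-1α sites. HIF-1α calls with the same antibody set these classes, so this difference is partly built in.

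The 2 isoforms could be read together. In WT cells, 44.6% (40.3 to 49.1) of HIF-1β-without-HIF-1α sites had HIF-2α and no HIF-1α peak, against 1.27% of shared sites. Both isoforms were called at 38.4% and 72.3%, HIF-1α alone at 4.09% and 21.7%, and neither at 12.9% and 4.75%. Distance to the TSS went with the HIF-2α calls. Among sites farther than 1 kb, WT HIF-2α was called at 88.2% (84.8 to 91.0) of HIF-1β-without-HIF-1α sites and at 85.8% (81.9 to 89.1) of shared sites, with overlapping intervals, while WT HIF-1α was called at 43.7% (39.0 to 48.4) and 97.2% (95 to 98.6). Within 1 kb, WT HIF-2α was called at 46.9% (34.3 to 59.8) and 54.3% (47.8 to 60.6).

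The same classes were read in HIF-α libraries of other cells and conditions. For each HIF-α library, peaks at shared or HIF-1β-without-HIF-1α sites were counted, and the share at the latter was taken. In HKC8 cells at 0.5% oxygen for 16 h this share was 20.3% and 33.4% in the HIF-2α libraries and 2.27% and 3.81% in the HIF-1α libraries. At 6 h it was 21.2% and 26.1% against 3.61% and 4.55%, at 48 h 25.6% and 11.5% against 0.637% and 0, and in 3% oxygen 15.2% and 16.8% against 2.90% and 0. In WT cells of the knockout experiment it was 46.5% and 49.4% against 23% and 22.2%. In RCC4 it was 33.7% and 29.0% against 24.2% and 7.09%. HepG2 was the exception, with 14.3% and 16.3% for HIF-2α and 13.2% and 19% for HIF-1α.

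Every HIF-2α library thus lay above every HIF-1α library in 6 of 7 conditions. Averaged over conditions, the HIF-2α libraries lay 16.6 percentage points higher (two-sided exact permutation of the antibody labels within conditions, p = 2.86e-05, adjusted p = 1.71e-04 over 6 tests). These 28 libraries did not define the classes, but the classes were set by HIF-1α calls with the same antibody, in the cell line of 5 of the 7 conditions. A lower share for HIF-1α libraries is therefore partly built into the classes, and this p-value is no independent support for a preference of HIF-2α. The shortest list had few peaks at either class, 26 in HKC8 HIF-2α at 48 h replicate 2, 3 of them at HIF-1β-without-HIF-1α sites.

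**Figure D5:**
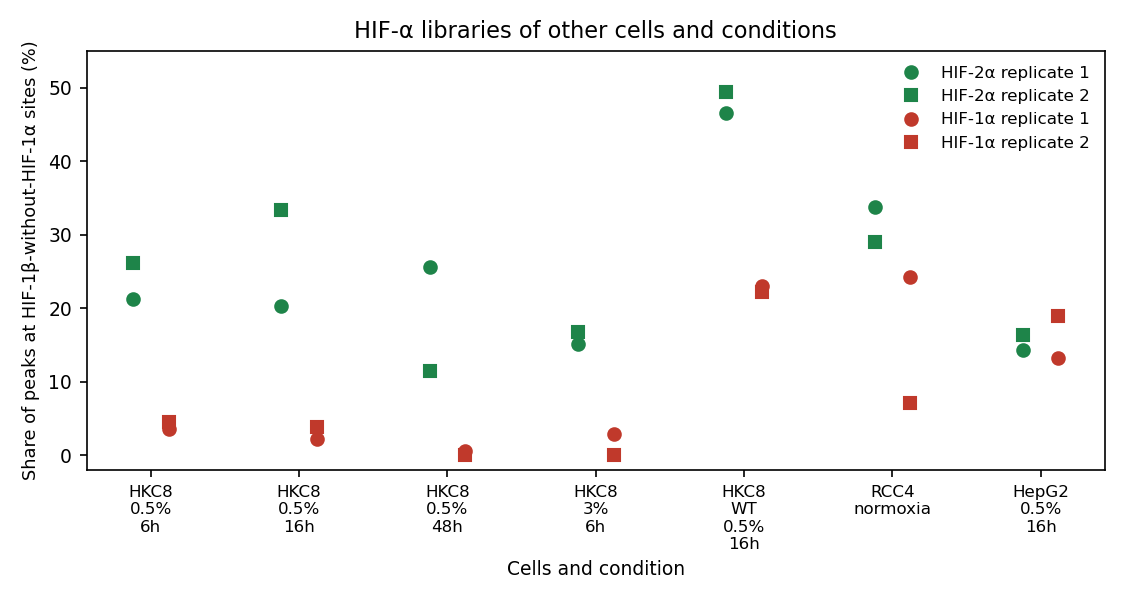
Percentage of the peaks at either class that lay at HIF-1β-without-HIF-1α sites (y axis) in HIF-2α (green) and HIF-1α (red) libraries of 7 conditions (x axis), circles for replicate 1 and squares for replicate 2. HIF-2α lies above HIF-1α in 6 conditions, and in HepG2 the points, from 13.2% to 19%, interleave.

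A small set of HIF-1β sites had no HIF-α call at all. At 16 of the 513 sites (3.12%, 1.79 to 5.02) no peak was found in any of the 30 other HIF-α lists, against 9.96% of all 3372 merged sites. HIF-1β was called at 14 of the 16 in WT cells and at 11 in HIF1aKO cells, near the 85.2% and 61.0% of all merged sites, and only 1 had no HIF-1β peak in any other list. The strongest lay at chr5:102763757-102764697, 134 kb from NUDT12 (an NADH pyrophosphatase), with HIF-1β scores of 616 and 439.7, ranks of 152 and 156, and a HIF-1β peak in 10 of the 16 other HIF-1β lists. The site 287 kb from SOX9, a transcription factor gene, scored 307 and 243 and had a HIF-1β peak in 12 of those lists. The other leaders were nearest to IL37 (345 and 295), FMN2 (242 and 207) and UBE2J2 (247 and 129.9). An HRE core lay in 6 of the 16 (37.5%, 15.2 to 64.6), against 25% of their flanks, and only the UBE2J2 site among the 5 leaders had one, of the GCGTG form. AP-1 lay in 1 of the 16.

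At shared sites, differences in rank between the subunits were repeated only in part. The median absolute difference in rank percentile between HIF-1α and HIF-1β was 8.87 percentage points. Its sign was the same in both replicates at 378 of 631 sites (59.9%), where unrelated signs would give about 50%. Among the sites placed higher with HIF-1α was that of TFRC, the transferrin receptor, 0.131 kb from its TSS, which scored 110.0 and 174 with HIF-1α and 65.6 and 69.2 with HIF-1β. The site at LGALS8 (galectin-8), 0.272 kb from its TSS, scored 233 and 178 with HIF-1α and 217 and 88.4 with HIF-1β, and had no HIF-2α peak in WT or HIF1aKO cells. Among the sites placed higher with HIF-1β was one 606 kb from CITED2, a HIF-inducible inhibitor of HIF coactivation, with 766 and 747 for HIF-1β and 95.4 and 53.0 for HIF-1α. The TGFBI site (an extracellular matrix protein) scored 366 and 454 with HIF-1β and 95.4 and 54.2 with HIF-1α. WT HIF-2α peaks were found in both replicates at all 4 leaders placed higher with HIF-1β (CITED2, PKD1, SMAD7 and TGFBI) and at 3 of the 4 placed higher with HIF-1α (ID1, TFRC and APOLD1). Over all shared sites, a WT HIF-2α peak in either replicate was found at 73.5%. The leaders were chosen for their difference in rank, so it is given without a test.

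The overlap of HIF-1β with HIF-1α was set beside that in the other genotypes. A HIF-1α peak overlapped 47.7% and 50.1% of HIF-1β peaks in HIF2aKO replicates 1 and 2, against 32.4% and 24.1% in WT replicates, and the groups did not overlap (48.9% ± 1.70 and 28.3% ± 5.81, SD, n = 2 each, exact permutation p = 0.333). The WT HIF-1β lists were longer, with 6192 and 8268 peaks, and with all lists cut to the same length by score the difference went from 20.7 to -0.110 percentage points. In HIF1aKO cells, where HIF-2α is the isoform left, 92.4% and 86.2% of HIF-1β peaks overlapped it. The difference between HIF-1α in HIF2aKO cells and HIF-2α in HIF1aKO cells was -40.3 percentage points (exact permutation p = 0.333) and -12.1 with lists of the same length. The HIF-1α and HIF-2α antibodies differ, so isoform and antibody cannot be told apart in it.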

How the data were processed

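ChIP-seq was performed by the authors in duplicate. Per the submitters' processing notes and the study's methods, reads were trimmed with Trim Galore (0.3.3) and aligned to GRCh37 with BWA (0.7.5a-r405), reads of mapping quality under 15 and black-listed regions were removed, duplicates were marked with Picard (1.106), and peaks were called with MACS in control mode, 1 list per library. The deposited lists hold coordinates and a score. The study's own site sets also required a second caller and a read-density filter, which were not applied here, so weak peaks remain. Read depth is not in the lists, so the precision of a peak is unknown and an absent peak does not show absent binding. Inputs were not used here. The score was read as 10 times the negative log10 of p from its values.

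Only chromosomes 1 to 22, X and Y were kept. Overlap meant at least 1 bp, and overlapping peaks were merged across the 4 lists. The 1490 sites of the HIF-1β lists alone became 1489 in the 4-list merge. TSS and gene parts came from GENCODE 44 (GRCh37 coordinates), protein-coding only, and centres stood for summits. Motifs were counted within 100 bp of the centre and in flanking windows 2 kb away. Intervals are Clopper-Pearson (95%). Tests were two-sided exact permutations of libraries, adjusted over 6 tests by Benjamini-Hochberg (Python 3.11.15, SciPy 1.17.1), and the code was tested on simulated data. Alternatives changed score, width, overlap, list length, TSS set, motif window and libraries.

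Named sites were the 8 shared sites with the best mean rank, all HIF-1α-without-HIF-1β sites, the 10 best HIF-1β-without-HIF-1α sites and the 5 best within 1 kb of a TSS, the 5 best without any HIF-α peak, the 4 shared sites placed highest with each subunit, and the genes of 10 lists. The lists, members and rules were chosen with earlier results of these data known. No sequence from chromosome 8 is shown. The shared-site result of 1 gene list is not reported here.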

Additional observations from a re-analysis of the deposited data

How the results depend on the processing

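With the other subunit required in both replicates, 96.2% of HIF-1α sites and 42.4% of HIF-1β sites had it. With lists of equal length these were 93.6% and 84.7%, with 38 HIF-1α-without-HIF-1β and 99 HIF-1β-without-HIF-1α sites, and the difference between HIF2aKO and WT in the share of HIF-1β peaks with HIF-1α reversed to -0.110 percentage points. Equal lists keep fewer of the weak HIF-1β peaks by construction. For scores of at least 100, the HIF-1β share was 68.2%, the classes held 333 shared and 234 HIF-1β-without-HIF-1α sites, and HIF-1β peaks with and without HIF-1α differed by 16.3 points at promoters and -3.34 for AP-1. In the upper 50% of each list these were 364 and 260 sites, 17 and -3.94, with WT HIF-2α at 78.5% and HIF1aKO HIF-1β at 79.2% of HIF-1β-without-HIF-1α sites. Windows of 200 bp gave 97.7% for HIF-1α sites, 13 HIF-1α-without-HIF-1β sites, -1.03 for AP-1, and 76.1% and 76.5% for WT HIF-2α and HIF1aKO HIF-1β. With a TSS within 5 kb the promoter difference was 21.8.

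Leaving out a replicate number or, as an alternative chosen after seeing the data, each of the 4 libraries gave ranges of 83.0% to 98.5% for HIF-1α sites with HIF-1β, 36.3% to 60.6% for HIF-1β sites with HIF-1α, 634 to 1122 shared sites, 10 to 155 HIF-1α-without-HIF-1β and 587 to 1426 HIF-1β-without-HIF-1α sites. The latter had WT HIF-2α at 54.8% to 81.0%, WT HIF-1α at 28.4% to 57.3% and HIF1aKO HIF-1β at 53.9% to 80.7%. Fewer lists admit more sites found once. HIF-1β peaks with minus without HIF-1α ranged from 13.2 to 27.2 points at promoters, 9.27 to 20 for the HRE core and -5.03 to -1.29 for AP-1, always in the same direction. The difference between HIF-2α and HIF-1α libraries over other conditions ranged from 12.2 to 22.5 (exact permutation p from 2.86e-05 to 0.0312 over all its alternatives), and was 19.5 without HepG2 and 15.2 without WT.

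Replicate numbers went with the calls. Of the sites in 1 list of each subunit, 206 and 47 joined lists of the same number, and 20 and 15 joined lists of different numbers. Call differences between replicates correlated across the subunits at 0.147 over 3372 sites and 0.437 over the 1282 with both subunits. What lies behind this was not tested, and there were only 2 pairs. With the replicate block, the difference between HIF-2α and HIF-1α libraries over other conditions was 16.6 (exact permutation p = 3.66e-04). The 5 comparisons of 2 against 2 libraries had an exact permutation p of 0.500, the smallest a block of this size allows, with the same differences. Peak lists hold no depth, so a weak site and an absent one cannot be told apart.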
